A study of Rattus with 6 samples.

Results

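The annexins are calcium-dependent proteins that bind acidic phospholipids, and each pairs a conserved membrane-binding core with its own amino-terminal tail. The tail decides which partners, often S100 proteins, a member can recruit to a membrane, and the family is known for work in exocytosis, endosome traffic and repair of the plasma membrane. In the anterior pituitary annexin A1 is best known as a glucocorticoid-induced mediator that restrains hormone release, and in the normal gland it is made mainly by folliculostellate cells, the non-endocrine support cells.

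The rule named 8 annexin genes, Anxa1, Anxa2, Anxa3, Anxa4, Anxa5, Anxa6, Anxa7 and Anxa11, and took the rows of the deposited exon table that carry those names. Anxa3 had no row. The other 7 had 91 of the 118147 exons of the table, and they are 7 of its 12801 genes. Polyadenylated RNA of RC-4B/C, a cell line grown from a rat pituitary adenoma, had been sequenced after aspirin (acetylsalicylic acid, ASA) in 3 libraries and after the solvent dimethyl sulfoxide (DMSO) in 3 libraries. All 6 came from the same line with no other genetic or drug treatment named, and dose, duration and the number of cultures are not stated in the labels. The p-values therefore measure the spread between these libraries, which may be technical. The comparison is ASA over DMSO, that is, how aspirin alters transcript levels in these cells.

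Depth was high, at 66492427 to 94486099 reads per library in the listed exons, and each annexin had between 3287 and 201747 reads in every library. Of 10 pituitary endocrine markers 6 had rows, among them Prl (prolactin), at 14037 RPKM or more in each library, and Gh1, Tshb, Lhb and Fshb had none. Their summed level was 21200 to 64800 RPKM in ASA and 27300 to 67200 RPKM in DMSO libraries. Of the 6, 1 was lower with ASA and none higher, beside 4.99% and 6.21% of all genes tested. It was Cga, the hormone alpha subunit (log2 fold change -3.30, adjusted p = 0.0137, limma, and -3.65 without ASA replicate 2). Prl, Chgb and Scg2, the highest of the list, had log2 fold changes of -0.44, -0.33 and 0.14 (limma, adjusted p = 0.7, 0.706 and 0.828). Prl had -1.01 without ASA replicate 2 (limma, adjusted p = 0.251). RPKM are reads scaled to the length of a gene's listed exons and to the depth of the library. Of 7 folliculostellate markers only Vim had rows, at 1.11 to 2.55 RPKM in ASA libraries and 1.60 to 2.51 RPKM in DMSO libraries, and S100b, Sox2, Sox9, Gfap, Fxyd1 and Aldh1a2 had none. None of the 4 endothelial and 3 erythroid markers had a row. Of 6 macrophage markers only Cd68 and Cd14 had rows (summed level 48.2 to 213 RPKM in ASA and 20.1 to 37.0 RPKM in DMSO libraries), and of 5 fibroblast markers only Dcn and Lum (2140 to 3280 RPKM against 1100 to 1160 RPKM). Within each pair the genes differed. Cd68 was higher with ASA (log2 fold change 4.89, limma, adjusted p = 0.0126, and 4.14 without ASA replicate 2), while Cd14 had a log2 fold change of -1.41 (adjusted p = 0.165). Dcn was higher with ASA (log2 fold change 1.32, limma, adjusted p = 0.0213, and 1.19 without ASA replicate 2), while Lum had -0.23 (adjusted p = 0.734). The calls of Cga and Cd68 were lost on leaving out ASA replicate 3 or either of DMSO replicates 1 and 3. That of Dcn was lost without ASA replicate 3 or any 1 of the DMSO libraries. The highest adjusted p in these fits (limma) was 0.0867 for Cga, 0.0818 for Cd68 and 0.139 for Dcn. The part of these genes in the results below was not tested. ASA replicate 2 stood apart from the other libraries, with 500 exons at 0 reads against 4 to 13 elsewhere, so the fold change of each annexin, and of each marker, partner or phospholipase A2 past the threshold, is also given without it. In bulk RNA, fewer cells of a type and less RNA per cell cannot be told apart.

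Anxa1 was the most abundant annexin in all 6 libraries and was lower with ASA. Its level was 689, 449 and 447 RPKM in ASA replicates 1, 2 and 3, against 2057, 1114 and 1942 RPKM in DMSO replicates 1, 2 and 3. The groups did not overlap, and DMSO replicate 2 lay nearest to the ASA libraries. Means were 528 ± 139 RPKM in ASA and 1705 ± 514 RPKM in DMSO libraries (SD, n = 3 each). The log2 fold change was -1.67 ± 0.31 (SE, 95% interval -2.38 to -0.95), which is 3.18-fold lower (limma on log2 of RPKM + 0.1, Benjamini-Hochberg adjusted p = 0.0228). Without ASA replicate 2 the gene was 2.96-fold lower (limma, adjusted p = 0.0231). The call was lost when ASA replicate 3 was left out (limma, adjusted p = 0.109), and likewise DMSO replicate 1 (0.092) or replicate 3 (0.125), while the fold stayed between 2.84 and 3.86 in all 6 leave-one-out fits. In Rnor_6.0 coordinates the listed exons of Anxa1 (ENSRNOG00000017469) span chr1:237894273-237904014 on the minus strand.

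Anxa6 was the other annexin past the threshold, and it too was lower with ASA. Annexin A6 is the large member, with a duplicated core, and is known for membrane and cholesterol traffic at late endosomes. It had 221, 80.2 and 174 RPKM in ASA replicates 1, 2 and 3, and 380, 443 and 473 RPKM in DMSO replicates 1, 2 and 3. All ASA libraries lay below all DMSO libraries, and ASA replicate 2 was the lowest. Means were 159 ± 71.8 RPKM in ASA and 432 ± 47.7 RPKM in DMSO libraries (SD, n = 3 each), a log2 fold change of -1.56 ± 0.36 (SE, 95% interval -2.39 to -0.73), 2.95-fold lower (limma, adjusted p = 0.0371). Without ASA replicate 2 it was 2.19-fold lower (limma, adjusted p = 0.0119). Leaving out ASA replicate 3, or 1 of the DMSO libraries, ended the call (limma, adjusted p = 0.094 to 0.157). In those fits the log2 fold change was -1.69 to -1.49. Over all leave-one-out fits the gene was 2.19-fold to 3.63-fold lower. The call was also lost in limma without the mean-variance trend (adjusted p = 0.0528). The listed exons of Anxa6 (ENSRNOG00000010668) span chr10:40321081-40357222 on the minus strand.

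Thus 2 of the 7 annexins fell (28.6%) and none rose, where the same test called 11.2% of all 12502 genes tested, 6.21% higher and 4.99% lower. All 7 had passed the filter of a mean RPKM of at least 0.5. Groups did not overlap for Anxa1, Anxa6 and Anxa7, or 42.9% of the members, beside 38.7% of all genes tested (19.9% higher and 18.8% lower). The median log2 fold change of the members was -0.05, beside -0.06 for all genes tested. Without ASA replicate 2 the same test called Anxa1 and Anxa6 again, with 20.9% of all genes called and 8.07% lower. The fit without ASA replicate 1 called 16.2% of all genes and that without ASA replicate 3 called 0%, and the fits without DMSO replicate 1, 2 or 3 called 0.728%, 5.06% and 0%.

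**Figure D1:**
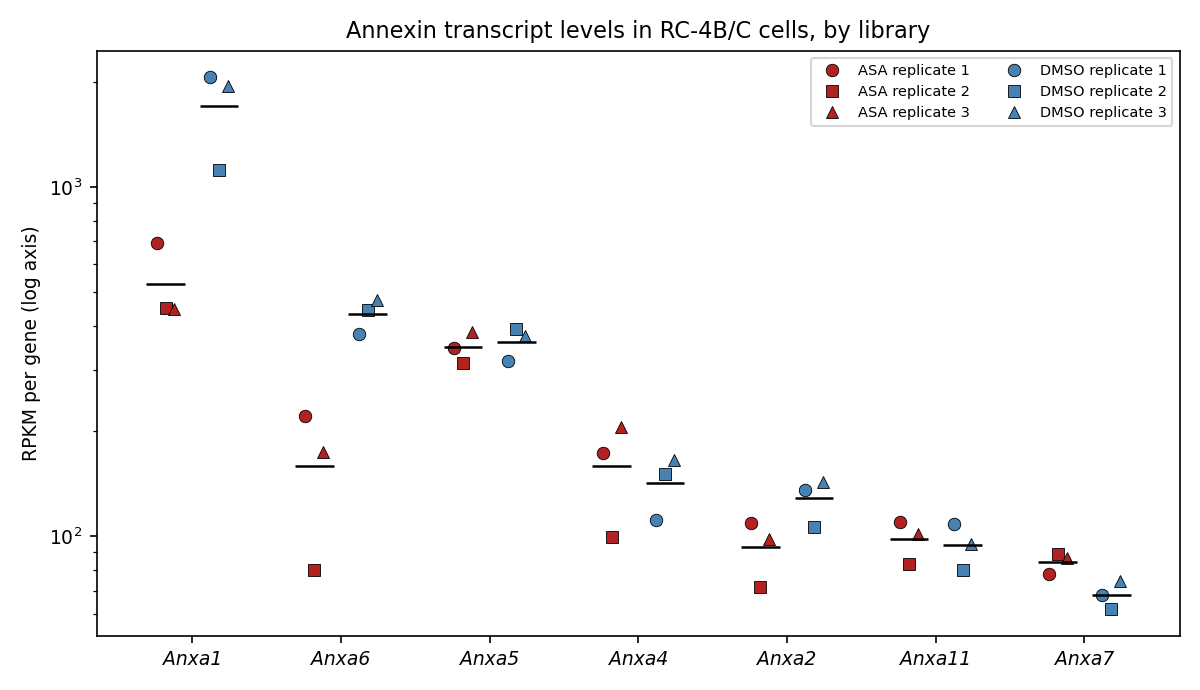
Level of each annexin (RPKM, log axis) in every library, with ASA libraries in red left of DMSO libraries in blue, and a black line at each group's mean. Anxa1 (447 to 689 against 1114 to 2057) and Anxa6 (80.2 to 221 against 380 to 473) lie lower in ASA with a gap between the groups, while Anxa5, Anxa4, Anxa2 and Anxa11 overlap.

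Anxa5 encodes the phosphatidylserine-binding protein that is used as a stain for dying cells. It had 346, 313 and 385 RPKM in ASA replicates 1, 2 and 3, and 317, 392 and 374 RPKM in DMSO replicates 1, 2 and 3. The groups overlapped fully, and the 95% interval of the log2 fold change, -0.47 to 0.37 around -0.05, leaves room for a change of either sign (limma, adjusted p = 0.866). The log2 fold change was 0.02 without ASA replicate 2. Anxa11, whose product binds the S100 protein calcyclin and links RNA granules to lysosomes, had 110, 83.2 and 102 RPKM in ASA replicates 1, 2 and 3, and 108, 80.2 and 95.3 RPKM in DMSO replicates 1, 2 and 3. Its log2 fold change was 0.06 with an interval of -0.40 to 0.51 (limma, adjusted p = 0.866), and 0.17 without ASA replicate 2.

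Anxa4, best known from secretory epithelia, had 173, 99.7 and 205 RPKM in ASA replicates 1, 2 and 3, and 112, 150 and 165 RPKM in DMSO replicates 1, 2 and 3. ASA replicate 2 was the lowest of all 6 and the other ASA libraries were the highest. The log2 fold change was 0.12 with an interval of -0.57 to 0.81 (limma, adjusted p = 0.812), and 0.42 without ASA replicate 2 (limma, adjusted p = 0.168). Anxa7 (synexin), first found as a protein that aggregates chromaffin granules, had 77.8, 88.9 and 86.5 RPKM in ASA replicates 1, 2 and 3, and 68.1, 61.9 and 74.5 RPKM in DMSO replicates 1, 2 and 3. Every ASA library lay above every DMSO library, but the difference did not pass (log2 fold change 0.31, interval -0.08 to 0.70, limma, adjusted p = 0.251). It was 0.27 without ASA replicate 2, and 0.057 with the median over its very uneven exons as gene level (limma, adjusted p = 0.207 and 0.876).

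Anxa2 encodes the annexin that joins S100a10 in a complex at the plasma membrane. It had 109, 71.5 and 98.5 RPKM in ASA replicates 1, 2 and 3, and 136, 106 and 143 RPKM in DMSO replicates 1, 2 and 3. ASA replicate 1 lay just above DMSO replicate 2, so the groups overlapped (log2 fold change -0.47, interval -0.99 to 0.04, limma, adjusted p = 0.195). The log2 fold change was -0.30 without ASA replicate 2 (limma, adjusted p = 0.245). Whether the changes of Anxa1 and Anxa6 differed from those of the other members was not tested.

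The make-up of the family differed between the groups. Summed over the 7 genes, the annexin level was 1726, 1186 and 1499 RPKM in ASA replicates 1, 2 and 3, and 3178, 2348 and 3267 RPKM in DMSO replicates 1, 2 and 3. The share of Anxa1 in that sum was 29.8% to 39.9% in ASA libraries and 47.5% to 64.7% in DMSO libraries. Without Anxa1 the sums were 1037, 737 and 1052 RPKM in ASA, against 1121, 1233 and 1325 RPKM in DMSO libraries. Anxa6 stood at 0.26 to 0.64 of the level of Anxa5 in ASA libraries and at 1.13 to 1.27 of it in DMSO libraries. These are levels per length in the same libraries, given as a description with no test.

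By mean RPKM the order in ASA libraries was Anxa1, Anxa5, Anxa4, Anxa6, Anxa11, Anxa2 and Anxa7. Anxa1 and Anxa5 each lay clear of the next gene, and from Anxa4 downward each gene's range overlapped that of its neighbour (Anxa4 and Anxa6 both averaged 159 RPKM). In DMSO libraries it was Anxa1, Anxa6, Anxa5, Anxa4, Anxa2, Anxa11 and Anxa7. There the ranges overlapped between Anxa6 and Anxa5, between Anxa4 and Anxa2, and between Anxa2 and Anxa11, and the other neighbours were apart. The value of Anxa2 in this order rests on uneven exons, described below.

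**Figure D2:**
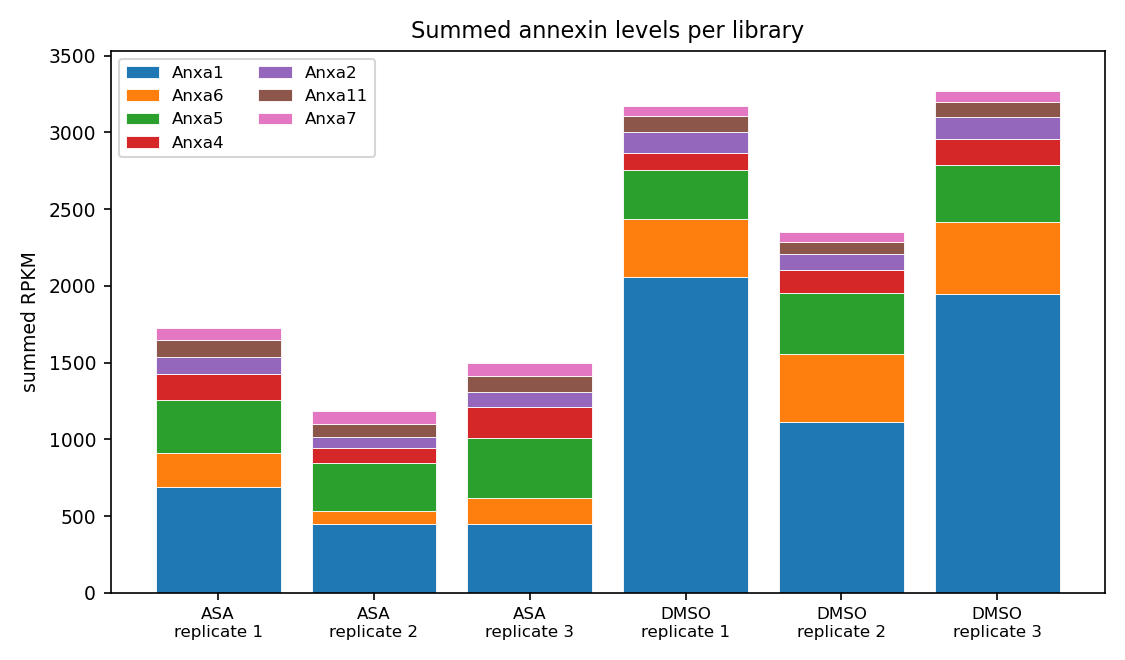
Summed RPKM of the 7 annexins in each library, with the 3 ASA libraries on the left and each colour giving the part of 1 gene. The ASA bars reach 1186 to 1726 and the DMSO bars 2348 to 3267, and the lowest segment, Anxa1, takes up most of that gap.

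The table lists exons one by one, so each gene's change could be followed along its length. The listed pieces appear to be the coding parts, since 95.3% of the 7525 genes with every numbered exon listed had a total length divisible by 3. All 12 exons of Anxa1 and all 23 listed exons of Anxa6 had ASA values below all DMSO values, a pattern that 16.6% of all 118147 exons showed. Exons of a gene share its reads and transcripts and are not replicates. Exon log2 fold changes ran from -2.11 to -1.44 in Anxa1 and from -2.01 to -1.32 in Anxa6. In the limma test over all exons 2 exons of Anxa1 and 3 of Anxa6 passed, 5 of the 91 annexin exons, all lower, where 2.28% of all exons passed and 0.791% were lower.

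Without ASA replicate 2 every listed exon of Anxa1 and Anxa6 passed, with the highest adjusted p (limma) at 0.0224 and 0.0152. The log2 fold changes then lay within -1.68 to -1.49 along Anxa1 and within -1.22 to -1.01 along Anxa6. In that fit 16.6% of all exons passed and 6.38% were lower. Of the exons of the other members 1, in Anxa2, passed.

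The exons of the remaining genes had smaller differences. All 8 listed exons of Anxa2 had log2 fold changes below 0, from -0.74 to -0.09, and in 2 of them the groups did not overlap. In Anxa4 and Anxa11 the sign was mixed along the gene, from -0.30 to 0.54 and from -0.41 to 0.36. Leaving out ASA replicate 2, all 11 exons of Anxa4 lay at 0.28 to 0.51 and all 14 exons of Anxa11 at 0.09 to 0.27, and none of them passed. The exons of Anxa5 then lay at -0.06 to 0.10, against -0.58 to 0.24 with all 6 libraries. In Anxa7 they ran from -0.25 to 0.77 with all 6 libraries, and 3 of its 12 exons had every ASA value above every DMSO value, as did 17.3% of all exons. In the fit without ASA replicate 2 they ran from -0.30 to 0.60, 11 of the 12 were above 0, and none passed.

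A change in exon use would show as exons of 1 gene moving by different amounts. By limma's diffSplice F test no annexin passed (adjusted p = 1 for each), and 0 had an unadjusted p under 0.05. Its Simes variant called none either, and 0.145% of the 11038 genes with several exons passed the F test. The test takes 1 spread for all exons of a gene, and on simulated exons that each had a spread of their own it made many false calls, so its counts over all genes carry little weight. In these data it gave few small p-values, with 186 of the 11038 genes at an unadjusted p under 0.05 (diffSplice F). The lack of a call in the annexins therefore does not show that their exon use was unchanged.

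**Figure D3:**
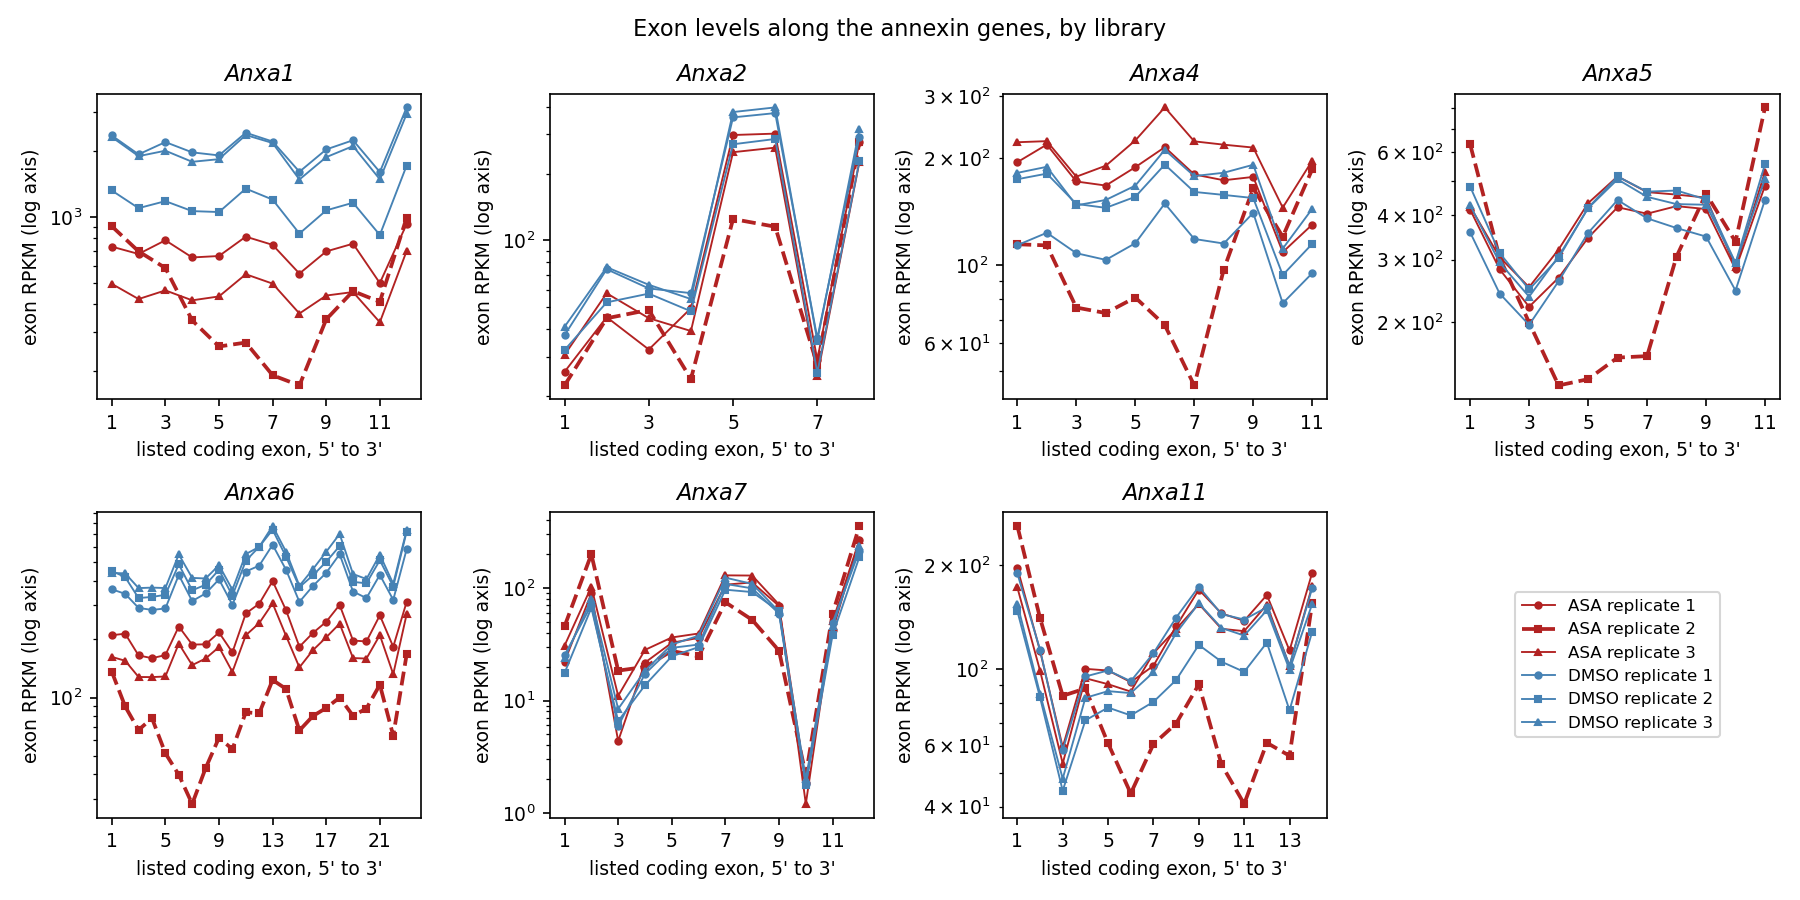
RPKM of each listed coding exon (log axis) from the 5′ to the 3′ end of the 7 annexins, 1 line per library, ASA in red and DMSO in blue, with ASA replicate 2 dashed. In Anxa1 and Anxa6 the ASA lines lie below the DMSO lines at every exon, the dashed line of ASA replicate 2 sags in the middle of several genes where the other lines run nearly in parallel, and Anxa2 and Anxa7 are jagged in every library.

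In ASA replicate 2 the exon profile itself was bent. Set against the mean of the other ASA libraries, and with each gene's exons split into 3 parts, the middle part of Anxa1 stood at -1.36 on the log2 scale, the 5′ part at 0.08 and the 3′ part at -0.18. Anxa5 gave -1.49 in the middle, against -0.18 and 0.12 in its 5′ and 3′ parts. In 5 of the 7 members the middle part was the lowest, which was so for 30.2% of the 5907 genes with at least 8 listed exons. The SD over exons of this deviation was 0.49 to 0.88 in the 7 members for ASA replicate 2. It was 0.24 to 0.63 for ASA replicates 1 and 3, each set against the other ASA libraries, and 0.03 to 0.16 for a DMSO library set against the other DMSO libraries. For ASA replicates 1 and 3 the other libraries include ASA replicate 2, so its bend enters their values. Over the 5907 genes the median SD was 0.7 for ASA replicate 2. It was 0.39 and 0.38 for ASA replicates 1 and 3, and 0.15 to 0.16 for the DMSO libraries. Anxa6 was low in ASA replicate 2 along its whole length, at -1.49, -1.47 and -1.16 in the 5′, middle and 3′ parts. The part of this library's profile in the gene values was not tested beyond leaving the library out.

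Anxa2 and Anxa7 differed from the other members in how even their exons were. In DMSO libraries the highest exon stood at 10.9 times the lowest in Anxa2 (349 against 32 RPKM) and at 112 times in Anxa7 (213 against 1.89 RPKM). In the other 5 genes the ratio was 1.96 to 3.25. The SD of log2 exon level was 1.46 in Anxa2 and 1.87 in Anxa7, above 95.9% and 98.3% of the 5907 genes, and 0.26 to 0.46 in the rest of the family. In Anxa2 the 3 highest exons made up 28.5% of the listed length and held 72.2% of the reads. In Anxa7 the last exon, 120 bases long, held 28.6% of the reads.

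The RefSeq annotation of the later assembly GRCr8, used for names only, lists 4 pseudogenes named after Anxa7 and 1 named after Anxa2, and none named after the other 5 members. Reads that match a gene and a near-identical copy can be lost or assigned to either, so the summed values of Anxa2 and Anxa7 are uncertain, and their exon unevenness was not tested against those copies. Of the 12 exons numbered in the table for Anxa2, 4 were not listed, against 0 to 2 in the other members. Of 546 annexin exon values 4 were not whole reads, all in Anxa6.

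The members share more than their name, which the rule used. In 5 of the 7 genes the listed coding exons contain, from the 5′ to the 3′ side, an unbroken run of 9 exons of 95, 114, 91, 80, 57, 94, 96, 59 and 123 bases. Anxa1, Anxa4, Anxa5, Anxa6 and Anxa11 have it, and no other gene of the 12801 in the table does. Anxa2 keeps at most 4 of these lengths in a row among its listed exons, and Anxa7 at most 2. Both genes that fell carry the run, and so do Anxa4, Anxa5 and Anxa11, which did not pass.

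Annexins act with partners, and among these S100a10 was lower with ASA. The list held 10 genes, of which S100b had no row, and of the 9 tested 2 fell and 1 rose, beside 4.99% and 6.21% of all genes. The median log2 fold change of the list was -0.18, beside -0.06 for all genes. Of the 9 genes 5 had an unadjusted p under 0.05 (limma), which 30% of all genes tested had. S100a10, the light chain of the annexin A2 complex, had 232, 191 and 195 RPKM in ASA replicates 1, 2 and 3, and 430, 314 and 435 RPKM in DMSO replicates 1, 2 and 3. It was 1.89-fold lower (log2 fold change -0.92 ± 0.20 SE, limma, adjusted p = 0.0328), with no overlap. The call held without ASA replicate 2 (1.82-fold lower, limma, adjusted p = 0.0266) and was lost on leaving out ASA replicate 3 or either of DMSO replicates 1 and 3 (0.124 to 0.172).

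Sri encodes sorcin, a calcium-binding protein that associates with annexin A7. It had 204, 122 and 162 RPKM in ASA replicates 1, 2 and 3, and 285, 288 and 295 RPKM in DMSO replicates 1, 2 and 3, 1.82-fold lower (limma, adjusted p = 0.0447). Sri was 1.59-fold lower without ASA replicate 2 (limma, adjusted p = 0.0258). The call was lost in limma without trend (adjusted p = 0.068), with the median over its exons as gene level (0.124), and on leaving out ASA replicate 3 or 1 of the DMSO libraries (0.109 to 0.188). S100a1, a calcium-binding protein reported to bind annexin A6, rose to 107, 149 and 140 RPKM in ASA replicates 1, 2 and 3, against 33.8, 60.5 and 45.8 RPKM in DMSO replicates 1, 2 and 3. That is 2.87-fold higher (log2 fold change 1.52 ± 0.25 SE, limma, adjusted p = 0.0189), with no overlap. It was 2.69-fold higher without ASA replicate 2 (limma, adjusted p = 0.0173). Its call ended on leaving out ASA replicate 3 or either of DMSO replicates 1 and 3 (0.0703 to 0.105).

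The highest of the other partners did not pass. S100a6 (calcyclin), a partner of annexins A2 and A11, had a log2 fold change of -0.25 (interval -0.71 to 0.21, limma, adjusted p = 0.429). S100a11, which binds the tail of annexin A1, had 204, 385 and 159 RPKM in ASA replicates 1, 2 and 3, and 255, 170 and 221 RPKM in DMSO replicates 1, 2 and 3. Its log2 fold change was 0.13, and -0.23 without ASA replicate 2 (limma, adjusted p = 0.815 and 0.45). Pdcd6 (ALG-2), which binds annexins A7 and A11, had no overlap, at 136, 216 and 153 RPKM in ASA and 110, 115 and 119 RPKM in DMSO replicates 1, 2 and 3 (log2 fold change 0.53, and 0.33 without ASA replicate 2, limma, adjusted p = 0.138 and 0.108). S100a4, with means of 6.07 RPKM in ASA and 15.0 RPKM in DMSO libraries, had a log2 fold change of -1.34 (limma, adjusted p = 0.13). Without ASA replicate 2 it was -1.06 (limma, adjusted p = 0.192). Of the leave-one-out fits, S100a4 passed only in that without ASA replicate 1 (limma, adjusted p = 0.0459).

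**Figure D4:**
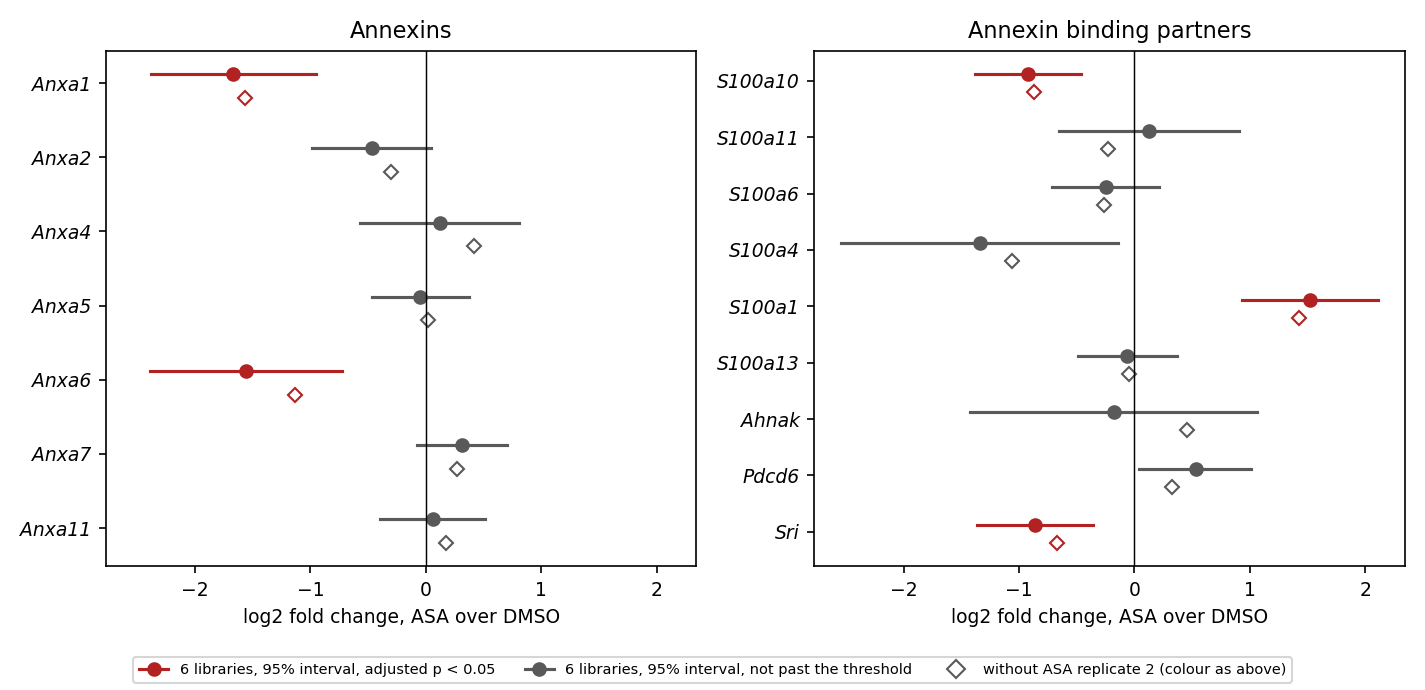
Log2 fold change of ASA over DMSO for the 7 annexins (left) and the 9 binding partners with rows (right), with 95% intervals from all 6 libraries as bars and the value without ASA replicate 2 as open diamonds. Anxa1, Anxa6, S100a10 and Sri lie below 0 and S100a1 above 0 (red, past the threshold), and the bars of Anxa2, Anxa4, Anxa5, Anxa7 and Anxa11 span 0.

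Annexin A1 was first described as an inhibitor of phospholipase A2, the enzyme class that releases arachidonic acid for the cyclooxygenases. Of 12 phospholipase A2 genes listed 6 had rows, and 2 rose and none fell, beside 6.21% and 4.99% of all genes. The median log2 fold change was 0.52, beside -0.06 for all genes. Pla2g15, the lysosomal enzyme, had 35.9, 42.5 and 45.2 RPKM in ASA replicates 1, 2 and 3, and 13.7, 10.3 and 10.6 RPKM in DMSO replicates 1, 2 and 3, 3.58-fold higher (limma, adjusted p = 0.0119). Pla2g4b, a cytosolic enzyme, had 11.6, 24.2 and 20.3 RPKM in ASA, against 4.13, 6.63 and 4.72 RPKM in DMSO replicates 1, 2 and 3, 3.48-fold higher (limma, adjusted p = 0.0257). Neither pair of groups overlapped, and without ASA replicate 2 the genes were 3.51-fold and 2.99-fold higher (limma, adjusted p = 0.00732 and 0.0214). Pla2g15 lost its call without ASA replicate 3 or DMSO replicate 3 (limma, adjusted p = 0.0806 and 0.0815), and Pla2g4b without those or DMSO replicate 1 (0.102 to 0.133). Pla2g6, Pla2g5 and Pla2g7 had log2 fold changes of 0.04, -1.50 and 0.99 (limma, adjusted p = 0.905, 0.167 and 0.302), and Pla2g5 passed without ASA replicate 1 (adjusted p = 0.028). Pla2g4a, the remaining gene with rows, had a log2 fold change of -0.60 (limma, adjusted p = 0.314). Its means were 1.26 RPKM in ASA and 1.91 RPKM in DMSO libraries.

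The formyl peptide receptors through which secreted annexin A1 signals, Fpr1, Fpr2 and Fpr3, had no row, and neither did the annexins Anxa8, Anxa9, Anxa10 and Anxa13. Every row of the table has over 10 reads in at least 4 of the 6 libraries, so a missing row does not show that a gene was silent.

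Of 16 genes of membrane repair and the ESCRT machinery, with which annexins seal torn membranes, 14 had rows and none passed in limma. The same test called 11.2% of all genes. Of the 14 genes 3 had an unadjusted p under 0.05, which 30% of all genes tested had, and voom on the recovered reads called none. The median log2 fold change was -0.10. Chmp2a, Tsg101 and Pdcd6ip (ALIX), the highest of the list, had log2 fold changes of 0.04, 0.13 and 0.25 (limma, adjusted p = 0.902, 0.701 and 0.328). Those with an unadjusted p under 0.05 were Myof, Chmp4c and Pdcd6. Their log2 fold changes were 0.85, 0.65 and 0.53 (limma, adjusted p = 0.0808, 0.0859 and 0.138). The lowest log2 fold changes of the list were those of Ehd2 and Ehd4, -1.26 and -0.97 (limma, adjusted p = 0.232 and 0.173). Without ASA replicate 2 they were -0.55 and -0.45. Of the leave-one-out fits, Ehd2 passed only in that without ASA replicate 1 (limma, adjusted p = 0.0315).

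The genes closest to each called annexin in pattern were found by the root mean square difference of log2(RPKM + 0.1), each gene centred on its own mean over the 6 libraries. Closest to Anxa1 were Gatb, a subunit of a mitochondrial aminoacyl-tRNA amidotransferase, and Fanca, of the Fanconi anaemia repair complex, at 0.186 and 0.187. Closest to Anxa6 were the homeobox genes Rhox5 and Pknox2, at 0.096 and 0.111. Rhox5 had 328, 101 and 220 RPKM in ASA replicates 1, 2 and 3, and 542, 571 and 594 RPKM in DMSO replicates 1, 2 and 3, so like Anxa6 it was lowest in ASA replicate 2.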

How the data were processed

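The deposited values are log2 RPKM per exon in 6 columns, which the authors computed with a small constant added before the log. Tools in the submitters' processing notes are edgeR 3.26.8, TopHat2 2.1.0, Bowtie2, cutadapt 1.14 and Trim Galore 0.4.1, with the rat build Rnor_6.0. How reads were counted, with or without strand, and from which annotation, is not given in the sources used here, so reads of overlapping antisense genes cannot be told apart. Columns were matched to samples by the code in each sample title. Replicate numbers are not in the labels, so the replicates of each group were numbered here in sample order.

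The constant was removed on the linear scale. In each library 95.7% to 96.8% of the values were then whole reads within 0.02 read, which gave the depths (66492427 to 94486099). Gene RPKM is the sum of reads over listed exons scaled to their length and to depth. The table shows no scaling factor between libraries. Replicates differed by more than sampling noise (chi-square per degree of freedom 119.2 to 1083.5).

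Genes were tested with limma 3.58.1 (a two-sided test from lmFit and eBayes with trend, no covariates) on log2(RPKM + 0.1), with Benjamini-Hochberg adjustment over the 12502 genes of a mean RPKM of at least 0.5 and a threshold of 0.05. Fold changes are on that log2 scale, which understates the change of low genes. Exons were tested on the deposited log2 values over the whole table, and exon use with diffSplice. The fits were tested on simulated data. A count model was not used because the deposited values are log2 RPKM, and limma's voom was run on recovered reads as an alternative. Other pseudocounts, filters, scalings, gene values and leaving out each library were also tried.

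The members, lists and tests were chosen with earlier results of these data known. Named genes are all members, all listed genes past the threshold, up to 3 others of each list by highest mean RPKM, and for each called member the 2 genes nearest in pattern. Tsc22d3, Pla2g4a, Fkbp5, Nr3c1, Myof, Chmp4c, Ehd2, Ehd4 and S100a4 were named outside this rule, after their values were seen.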

Additional observations from a re-analysis of the deposited data

How the results depend on the processing

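Anxa1 and Anxa6 were lower with ASA in every fit run. Of 98 alternative log2 fold changes of the 7 members, 83 kept their direction and side of the threshold, 8 (all of Anxa1 or Anxa6) lost the call and 7 (Anxa4, Anxa5 and Anxa11, never called) changed sign. Both calls held with pseudocounts of 0.01 and 1, other filters, median-ratio scaling, voom and the median exon, and limma without trend called only 1. Leaving out each library in turn, 0 to 2 annexin genes and 0 to 36 annexin exons passed, against 2 and 5 in the full fit, and 0 showed uneven exons. Where no annexin gene passed, 2 had an unadjusted p under 0.05 (limma, leaving out ASA replicate 3 or either of DMSO replicates 1 and 3). With exons of at least 100 bases 2 annexin exons passed, of 25 tested, and with median-ratio scaling 25 did. Over the whole table, leaving out each library gave 0 to 2618 genes, against 1400, and 0 to 19613 exons, against 2690. In the limma fits that called no gene, 2924 (without ASA replicate 3) and 2342 (without DMSO replicate 3) had an unadjusted p under 0.05. Median-ratio scaling gave 4043 exons. Genes with uneven exons numbered 16, and 2 to 75 with a library left out, 6 with longer exons only and 42 by the Simes test. The cause was not tested.

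With the median exon as gene value Anxa11 had a log2 fold change of -0.12, Chmp2a of -0.07 and Anxa7, which kept its sign, of 0.057. Leaving out each library, the log2 fold change ran from -0.10 to 0.42 for Anxa4, -0.14 to 0.022 for Anxa5, -0.058 to 0.17 for Anxa11, -0.23 to 0.40 for S100a11, -0.05 to 0.091 for Chmp2a, -0.037 to 0.21 for Pla2g6, -0.063 to 0.26 for Tsg101 and -0.15 to 0.20 for Sgk1. No paired analysis was possible because the labels carry no replicate numbers. Each member had 3287 reads or more in every library.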

Other observations

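Annexin A1 is a known glucocorticoid-induced gene, so other genes tied to glucocorticoid action were also read. Among them was Nr3c1, which encodes the glucocorticoid receptor itself (log2 fold change 0.53, limma, adjusted p = 0.182). Of 10 listed, 9 had rows and none passed in limma or in voom on the recovered reads, where limma called 11.2% of all genes. Of the 9 genes 4 had an unadjusted p under 0.05 (30% of all genes tested had one). The median log2 fold change was 0.54, beside -0.06 for all genes. Dusp1, Sgk1 and Klf9, the highest of the list, had log2 fold changes of 0.74, 0.04 and 0.92 (limma, adjusted p = 0.339, 0.913 and 0.0538), and Klf9 passed without ASA replicate 1 or DMSO replicate 2 (0.0472 and 0.0462). Fkbp5 had a log2 fold change of 0.03 with all 6 libraries and 0.54 without ASA replicate 2 (limma, adjusted p = 0.976 and 0.206). The fit without ASA replicate 2 called 20.9% of all genes. Of this list only Tsc22d3 (GILZ) passed in it, 2.13-fold higher (limma, adjusted p = 0.0157, and 0.058 with all 6 libraries). It had 54.3, 37.7 and 60.7 RPKM in ASA replicates 1, 2 and 3, and 25.8, 32.8 and 22.9 RPKM in DMSO replicates 1, 2 and 3. Tsc22d3 passed in no other leave-one-out fit. The part of glucocorticoid action in the level of Anxa1 was not tested.

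The copines are another family of calcium-dependent phospholipid-binding proteins. Of 9 listed, 4 had rows and none passed in limma or voom, with 1 at an unadjusted p under 0.05. Over all genes tested 11.2% passed in limma and 30% had an unadjusted p under 0.05. Cpne3, Cpne2 and Cpne4 had log2 fold changes of 0.16, -0.75 and 0.48 (limma, adjusted p = 0.52, 0.0675 and 0.37). Cpne2 had 19, 14.3 and 14.2 RPKM in ASA replicates 1, 2 and 3, and 30.5, 24.2 and 25.1 RPKM in DMSO replicates 1, 2 and 3, and passed without ASA replicate 1 (limma, adjusted p = 0.0422).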
